A study of Mus musculus with 12 samples.

Results

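The 10 circadian clock genes Arntl, Clock, Npas2, Per1, Per2, Per3, Cry1, Nr1d1, Nr1d2 and Dbp were followed in epididymal white adipose tissue (eWAT) of mice. They were found by matching mouse Ensembl identifiers to gene symbols in a table of 23474 genes, and all 10 were present. The table gives FPKM, fragments scaled to transcript length and library depth, so that levels are per length of transcript and can be set side by side between genes. All 10 had a mean of at least 1 FPKM in every comparison, the minimum for a gene to be tested, although Npas2 had a mean of only 0.933 FPKM in the TJ group.

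The study asked how an obesogenic diet and plant extracts added to it change adipose gene expression. RNA-seq was done on 12 libraries, 3 in each of 4 groups. All mice were male C57BL/6J, were housed singly in a cycle of 12 h light and 12 h dark, started their diets at 5 weeks of age, ate them for 12 weeks and were 17 weeks old at the end. The ND group ate a normal diet, the HFD group a high-fat diet, the GT group the HFD with an ethanol extract of green tea (0.25% by weight), and the TJ group the HFD with the Korean herbal medicine Taeeumjowitang (3% by weight). The labels name no allele or transgene. The methods state a 12-h fast before the mice were killed. The time of day of collection is not given in the sources used here, so that a difference in level between groups and a difference in the time or phase of collection cannot be told apart. Each HFD and TJ library came from 1 mouse; for ND and GT the sources do not say whether libraries came from separate mice, and p-values then measure only the spread between these libraries.

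The mammalian clock is a loop of transcription that runs in nearly every cell, adipocytes included. BMAL1 (the product of Arntl) pairs with CLOCK or its relative NPAS2 and activates genes through E-box elements, among them the Per, Cry and Nr1d genes and Dbp. PER and CRY proteins then repress their own activators, the REV-ERB receptors encoded by Nr1d1 and Nr1d2 repress Arntl and Npas2 through ROR/REV-ERB elements, and DBP carries the rhythm to output genes through D-box elements. In adipose tissue the loop times lipid storage and release, and levels of most of its transcripts swing over the day.

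The libraries held roughly 11.1M to 20.6M fragments, which FPKM does not give directly, so no counting intervals were derived. ND replicate 1 stood apart from the rest: a list of 12 germ cell genes summed to 99861 FPKM there against 1.34 to 3230 FPKM in the other 11 libraries, and 10 epididymis genes summed to 17693 FPKM against 0.470 to 1275 FPKM. Smaller amounts were seen elsewhere: the germ cell sum was 3230 FPKM in ND replicate 3 and 2181 in HFD replicate 1. The epididymis sum was 1275 FPKM in HFD replicate 2. In GT and TJ these sums were at most 81.8 and 12.1 FPKM, and HFD is the reference for both extracts. Across genes, the rank correlation between libraries of a group was 0.724 to 0.936 in ND and 0.945 to 0.981 in the other groups. The main values of HFD against ND are therefore given with and without ND replicate 1. All 12 adipocyte markers were above 0 in every library. The tissue is a mixture, and in such bulk samples fewer cells of a type and less RNA per cell cannot be told apart.

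Promoters are shown for 4 genes, Arntl as the main activator, Per3 and Nr1d1 as genes called higher, and Cry1, which was not called, as the one whose window held both E-box forms. In the RefSeq promoter table (GRCm38.p6), 9 of the 10 clock genes matched, all but Per2. The 250 bases before each transcript start were searched on both strands for the E-box CACGTG, the E-box variant CACGTT, the D-box letters TTATGTAA and TTACGTAA, the core TAGGTCA of the ROR/REV-ERB element, and that element's longer consensus, which contains the core. In the sequences, written 5′ to 3′ on the strand of the gene, capitals mark a match. The Arntl window (chr7:113207215-113207464, plus strand), that of the activator gene, is shown because it held no match:
Arntl: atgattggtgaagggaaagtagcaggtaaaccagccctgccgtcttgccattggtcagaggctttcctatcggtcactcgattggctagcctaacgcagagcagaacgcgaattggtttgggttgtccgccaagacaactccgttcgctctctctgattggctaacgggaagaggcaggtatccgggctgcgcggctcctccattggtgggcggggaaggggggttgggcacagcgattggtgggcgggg
The Per3 window (chr4:151044666-151044915, minus strand) held TTATGTAA at 2 places:
Per3: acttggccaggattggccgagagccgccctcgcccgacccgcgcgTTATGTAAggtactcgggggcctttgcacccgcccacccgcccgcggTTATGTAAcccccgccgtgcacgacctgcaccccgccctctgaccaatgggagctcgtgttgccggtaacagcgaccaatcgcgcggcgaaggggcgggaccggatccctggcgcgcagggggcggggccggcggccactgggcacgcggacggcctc
The Nr1d1 window (chr11:98775378-98775627, minus strand) held AACGTG, which is CACGTT read on the other strand, 28 to 23 bases before the start:
Nr1d1: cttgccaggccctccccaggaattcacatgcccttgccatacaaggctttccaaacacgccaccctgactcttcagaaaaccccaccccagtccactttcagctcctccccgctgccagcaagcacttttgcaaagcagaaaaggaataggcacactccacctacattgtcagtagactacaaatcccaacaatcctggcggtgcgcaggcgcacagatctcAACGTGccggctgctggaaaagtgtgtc
For Cry1, bases 120 to 11 before the start (chr10:85185065-85185174, minus strand) held AACGTG and CACGTG:
Cry1: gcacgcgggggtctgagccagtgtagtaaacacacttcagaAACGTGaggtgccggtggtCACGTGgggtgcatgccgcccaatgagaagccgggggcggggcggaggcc

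Among all 32851 promoter windows, 6.02% held CACGTG, as did those of Cry1 and Per1, and 3.85% held CACGTT, as did those of Cry1 and Nr1d1. TTATGTAA was found in 0.819% of windows and, among the 9 clock genes with a window, only in that of Per3, while TTACGTAA (0.113%) was in none of theirs. The core TAGGTCA (2.23%) and the longer ROR/REV-ERB consensus (0.332%) were in no window of these 9 genes. Windows of some other clock and clock-output genes held matches, TTATGTAA and the core TAGGTCA among them. A match of letters is a description of these windows, and no binding was measured.

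Of the 3 activator genes, Arntl and Npas2 were lower with GT and with TJ than with the HFD alone. Per3 was higher with both, and Nr1d1 was higher with TJ. Called genes had a Benjamini-Hochberg adjusted p-value from limma under 0.05 over all tested genes and a fold change of at least 1.5. By this rule 3 of the 10 clock genes were called for GT against HFD, 1 higher and 2 lower, against 3.63% of all 12766 tested genes (1.83% higher and 1.81% lower). For TJ against HFD 4 of 10 were called, 2 higher and 2 lower, against 18.5% of all 12807 tested genes (7.41% higher and 11.1% lower). The HFD libraries serve both comparisons, so the shared directions are not independent of each other.

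**Figure D1:**
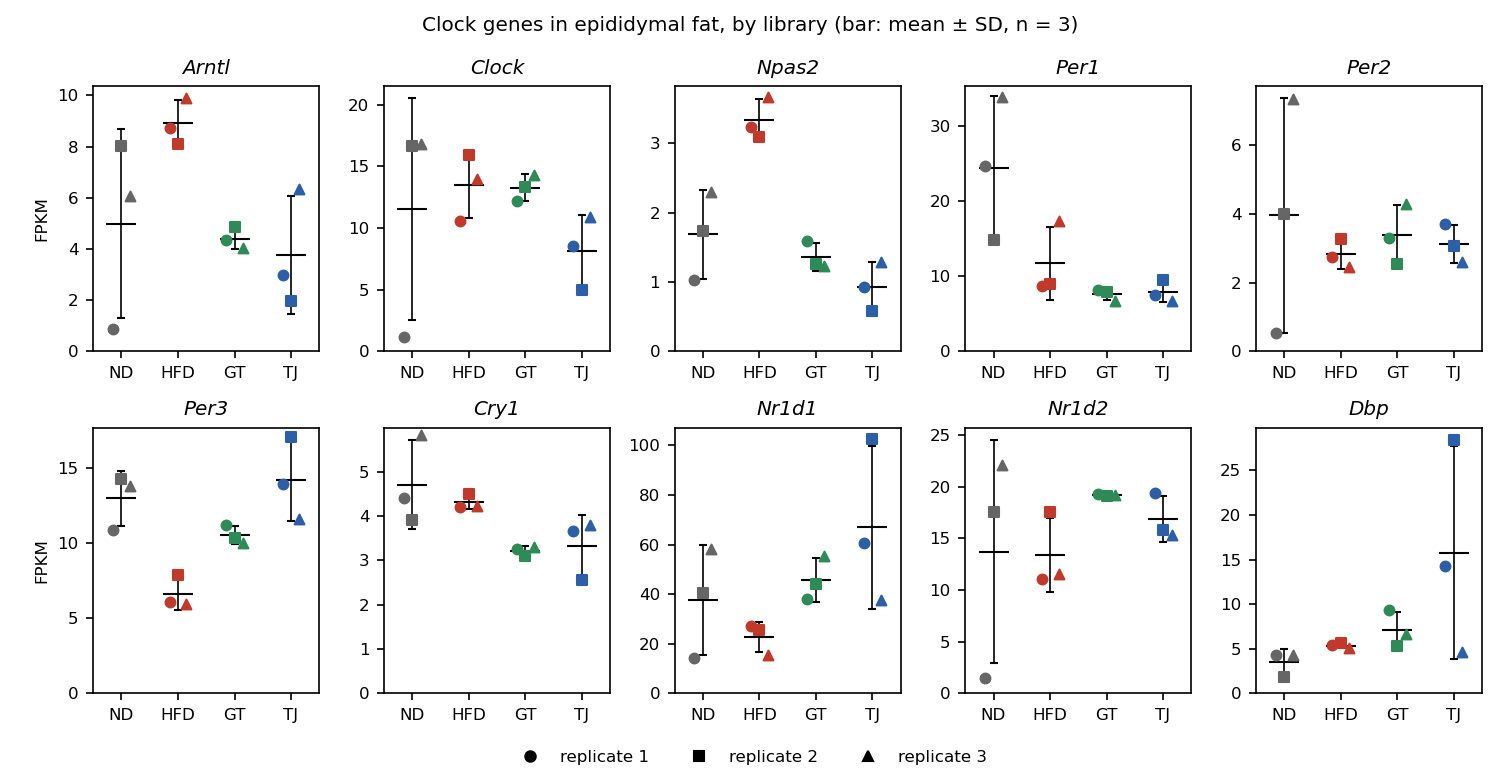
FPKM of the 10 clock genes in each of the 12 libraries (linear y axis from 0, 1 panel per gene, groups ND, HFD, GT and TJ on the x axis). Points are libraries, marked by replicate, and bars are the group mean ± SD (n = 3). The HFD libraries hold the highest Arntl (8.09 to 9.92 FPKM) and Npas2 levels and the lowest Per3 levels, and ND replicate 1 lies lowest for Arntl, Clock, Per2, Nr1d1 and Nr1d2.

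Arntl (ENSMUSG00000055116, chromosome 7, 113207465 to 113314126, plus strand) encodes the BMAL1 partner without which the loop does not run. Its level was 8.72, 8.09 and 9.92 FPKM in the HFD libraries, 4.35, 4.86 and 4.03 FPKM in GT, and 2.97, 1.98 and 6.35 FPKM in TJ. Every HFD library was above every GT and every TJ library. In ND it was 0.877, 8.02 and 6.06 FPKM, all below the HFD libraries but, in replicate 2, only just. The group means were 8.91 ± 0.931 FPKM in HFD, 4.99 ± 3.69 in ND, 4.41 ± 0.419 in GT and 3.76 ± 2.29 in TJ (SD, n = 3), and apart from HFD and ND, neighbours in this order overlapped. Arntl fell by 0.87 on the log2(FPKM + 1) scale with GT (SE 0.12, limma adjusted p = 0.0323) and by 1.16 with TJ (SE 0.32, limma adjusted p = 0.0454).

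Npas2 (ENSMUSG00000026077, chromosome 1), the CLOCK relative that can take its place beside BMAL1, had the lowest mean of the 10 genes in ND, GT and TJ. It stood at 3.24, 3.10 and 3.67 FPKM in HFD, 1.60, 1.26 and 1.23 FPKM in GT, 0.922, 0.580 and 1.30 FPKM in TJ, and 1.03, 1.74 and 2.30 FPKM in ND. The 3 HFD libraries were above all 9 others. GT and TJ overlapped, as did GT and ND. The log2 fold change was -0.88 with GT (SE 0.15, limma adjusted p = 0.0379) and -1.18 with TJ (SE 0.21, limma adjusted p = 0.0248), which understates the change of a gene this low because 1 FPKM was added. On the ratio of means, GT was at 0.408 and TJ at 0.280 of the HFD level.

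Clock, the third activator gene, did not follow Arntl and Npas2 in the GT group. Its level was 10.6, 15.9 and 14.01 FPKM in HFD, 12.2, 13.3 and 14.3 FPKM in GT, 8.52, 4.98 and 10.9 FPKM in TJ, and 1.16, 16.7 and 16.8 FPKM in ND. GT lay within the HFD range, and TJ overlapped HFD only through TJ replicate 3. GT differed from HFD by a log2 fold change of -0.01 (SE 0.15, limma adjusted p = 0.987), a sign that turned to 0.12 when the libraries were scaled by their median ratio. TJ differed from HFD by -0.71 (SE 0.27, limma adjusted p = 0.0993) and did not pass the test.

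Of the period and cryptochrome genes, Per3 (ENSMUSG00000028957, chromosome 4, 151003652 to 151044665, minus strand), a period gene whose loss leaves the loop running, was the only one called. It was lowest in HFD, at 6.09, 7.91 and 5.95 FPKM. It reached 11.2, 10.4 and 10.1 FPKM in GT, 13.9, 17.1 and 11.6 FPKM in TJ, and 10.9, 14.3 and 13.8 FPKM in ND. All 3 HFD libraries were below all 9 others, and every TJ library was above every GT library. The log2 fold change against HFD was 0.60 with GT (SE 0.12, limma adjusted p = 0.0482) and 0.99 with TJ (SE 0.18, limma adjusted p = 0.0248).

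Per1, a period gene that glucocorticoids also induce, stood highest in ND, at 24.7, 14.8 and 33.8 FPKM. It was 8.76, 9.02 and 17.4 FPKM in HFD, 8.13, 7.91 and 6.69 FPKM in GT, and 7.54, 9.46 and 6.74 FPKM in TJ. The GT libraries were all below those of HFD, TJ overlapped HFD, and HFD replicate 3 was above 1 ND library. Neither GT (log2 fold change -0.51, SE 0.25, limma adjusted p = 0.222) nor TJ (-0.46, SE 0.27, limma adjusted p = 0.226) passed the test.

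Per2, the period gene closest in role to Per1, overlapped between all groups. It stood at 2.74, 3.28 and 2.46 FPKM in HFD, 3.30, 2.55 and 4.30 FPKM in GT, 3.70, 3.07 and 2.61 FPKM in TJ, and 0.526, 4.01 and 7.36 FPKM in ND. The log2 fold changes against HFD were 0.18 for GT (limma adjusted p = 0.531) and 0.11 for TJ (limma adjusted p = 0.663).

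Cry1, a cryptochrome and the strongest repressor of the CLOCK and BMAL1 pair, was even in HFD, at 4.22, 4.50 and 4.23 FPKM. It was 3.26, 3.10 and 3.31 FPKM in GT, 3.66, 2.55 and 3.80 FPKM in TJ, and 4.40, 3.91 and 5.83 FPKM in ND. All GT and all TJ libraries were below all HFD libraries, but the differences of -0.33 for GT (SE 0.11, limma adjusted p = 0.109) and -0.31 for TJ (SE 0.17, limma adjusted p = 0.206) did not pass.

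Of the REV-ERB genes, Nr1d1 (ENSMUSG00000020889, chromosome 11, 98767932 to 98775333, minus strand) had the highest mean of the 10 genes in every group and the largest SD, from 6.20 FPKM in HFD to 32.9 FPKM in TJ (n = 3). It was 27.1, 25.5 and 15.6 FPKM in HFD, 37.9, 44.3 and 55.4 FPKM in GT, and 60.6, 102.6 and 37.8 FPKM in TJ. All GT and TJ libraries were above all HFD libraries, and TJ replicate 3 fell just under the lowest GT library. In ND it was 14.2, 40.4 and 58.4 FPKM, from below HFD to above GT. TJ raised it by a log2 fold change of 1.44 (SE 0.37, limma adjusted p = 0.0413). For GT the value was 1.00 (SE 0.23), which missed the threshold (limma adjusted p = 0.0569) though the groups did not overlap. Nr1d1 overlaps Thra on the opposite strand, and since the strand setting of the reads is not given in the sources used here, reads from the shared stretch cannot be told apart. The same holds for Dbp with Sphk2 and for Arntl with the antisense gene Gm45355, and Per3 lies within the span of Camta1 on its own strand.

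Nr1d2, which encodes the second REV-ERB, was 11.1, 17.5 and 11.6 FPKM in HFD, 19.3, 19.1 and 19.2 FPKM in GT, 19.4, 15.8 and 15.4 FPKM in TJ, and 1.53, 17.5 and 22.1 FPKM in ND. GT was above all HFD libraries, and TJ overlapped HFD. The log2 fold changes of 0.52 for GT (SE 0.17, limma adjusted p = 0.107) and 0.33 for TJ (SE 0.20, limma adjusted p = 0.237) did not pass.

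Dbp, the D-box output factor, averaged 15.8 ± 12.0 FPKM with TJ (SD, n = 3), a group whose libraries lay far apart. Its level was 14.3, 28.4 and 4.64 FPKM in TJ, against 5.40, 5.65 and 5.06 FPKM in HFD. TJ replicates 1 and 2 were above, and TJ replicate 3 below, every HFD library. In GT it was 9.33, 5.26 and 6.67 FPKM, and in ND it was 4.34, 1.79 and 4.34 FPKM, below HFD in all 3 libraries. The differences from HFD were 1.10 for TJ (SE 0.53, limma adjusted p = 0.161) and 0.31 for GT (SE 0.18, limma adjusted p = 0.295). Dbp passed for TJ in 1 of 12 alternatives, without TJ replicate 3 (1.74, limma adjusted p = 0.0277), and stood at 0.54 without TJ replicate 2 (limma adjusted p = 0.353).

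**Figure D2:**
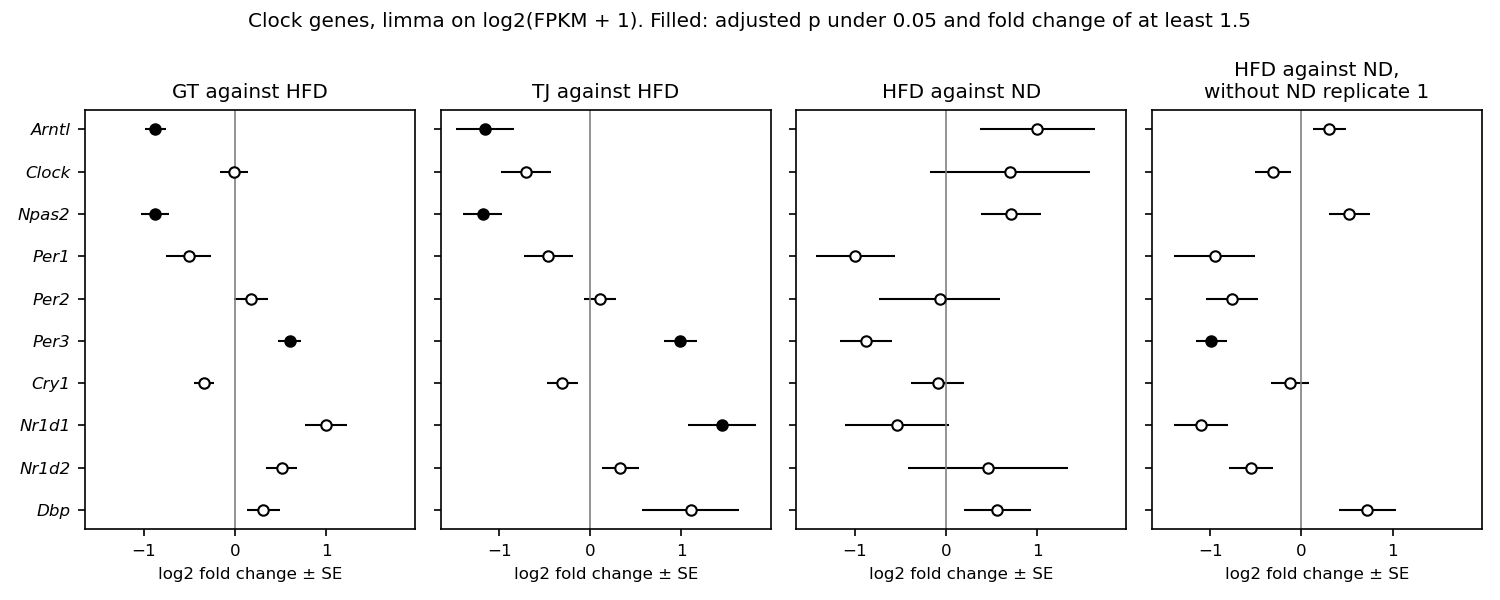
Log2 fold change on the log2(FPKM + 1) scale with its SE for each clock gene, for GT and TJ against HFD and for HFD against ND with and without ND replicate 1 (limma, 3 libraries a group, 2 for ND in the last panel). Filled points are called: Arntl, Npas2 and Per3 for GT and TJ, Nr1d1 for TJ, none for HFD against ND, and Per3 once ND replicate 1 is left out.

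Counted over all 10 genes, GT and HFD did not overlap for 7, against 36.7% of all tested genes, and 6 had an unadjusted p under 0.05, against 29.3%. TJ and HFD did not overlap for 5, against 51.5%, and 5 had an unadjusted p under 0.05, against 41.4%, so that for TJ these shares were near the background. The median log2 fold change of the 10 genes was 0.09 for GT and -0.10 for TJ, beside -0.12 and -0.14 over all tested genes. Scaling by the median ratio brought the latter medians to -0.01 and -0.01 and turned the calls over all genes for GT from 233 higher and 231 lower to 400 higher and 145 lower, and for TJ from 949 and 1417 to 1285 and 1085. The 7 calls of clock genes kept their direction and passed under this scaling, and Nr1d1 was then called for GT too (limma adjusted p = 0.0403).

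The calls rest on few libraries. For GT, 0 of the 10 clock genes were called when any 1 HFD library, GT replicate 2 or GT replicate 3 was left out, fits in which limma called only 4 to 66 of all genes. There were also 0 in a fit of the 9 HFD, GT and TJ libraries, where 1.61% of all genes were called. In those fits 5 or 6 clock genes had an unadjusted p under 0.05. Without GT replicate 1 there were 3 (8.63% of all genes), with Nr1d1 in place of Per3. For TJ, 0 were called without any 1 HFD library or without TJ replicate 1, which left 0 of all genes called by limma, with 4 or 5 clock genes at an unadjusted p under 0.05. Without TJ replicate 2 there were 3 (15.7% of all genes), with Arntl at limma adjusted p = 0.0628. Without TJ replicate 3 there were 6 (26.5%), with Clock and Dbp added. In the fit of 9 libraries, chosen after seeing the data, there were 5 (26.4%), with Clock added (limma adjusted p = 0.0482). With all 12 libraries in 1 fit, 0 clock genes were called for GT and 0 for TJ (1 of all genes by limma in each), and 2 and 3 had an unadjusted p under 0.05. Without the filter on low values, 0 were called for GT (5 of all genes) and 1 for TJ (382 of all genes). Over 12 alternatives each, the log2 fold changes with GT ran from -0.997 to -0.76 for Arntl, from -1.24 to -0.79 for Npas2 and from 0.54 to 0.72 for Per3. Those with TJ ran from -1.52 to -0.87 for Arntl, from -1.79 to -1.04 for Npas2, from 0.85 to 1.12 for Per3 and from 1.08 to 1.79 for Nr1d1.

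Ratios within a library need no scaling between libraries. The ratio of Nr1d1, which represses Arntl, to Arntl was 3.11, 3.15 and 1.58 in HFD, 8.71, 9.12 and 13.8 in GT, and 20.4, 51.9 and 5.95 in TJ. Every GT and TJ library had a higher ratio than every HFD library, which the levels of both genes already give, and so did ND, at 16.2, 5.04 and 9.63. The ratio of Per3 to Npas2 was 1.88, 2.55 and 1.62 in HFD, 7.03, 8.24 and 8.16 in GT, 15.1, 29.5 and 8.97 in TJ, and 10.6, 8.23 and 6.01 in ND. Since HFD was lowest in Per3 and highest in Npas2, its place on this ratio was given by their levels. The ratio of Dbp to Arntl ran from 0.510 to 0.698 in HFD, from 1.08 to 2.14 in GT and from 0.731 to 14.4 in TJ. Both extract groups were thus above HFD, while ND, at 4.94, 0.224 and 0.715, lay on both sides. Dbp itself overlapped between HFD and each extract group, whereas Arntl was lower in both without overlap, so this ratio adds nothing on Dbp alone.

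**Figure D3:**
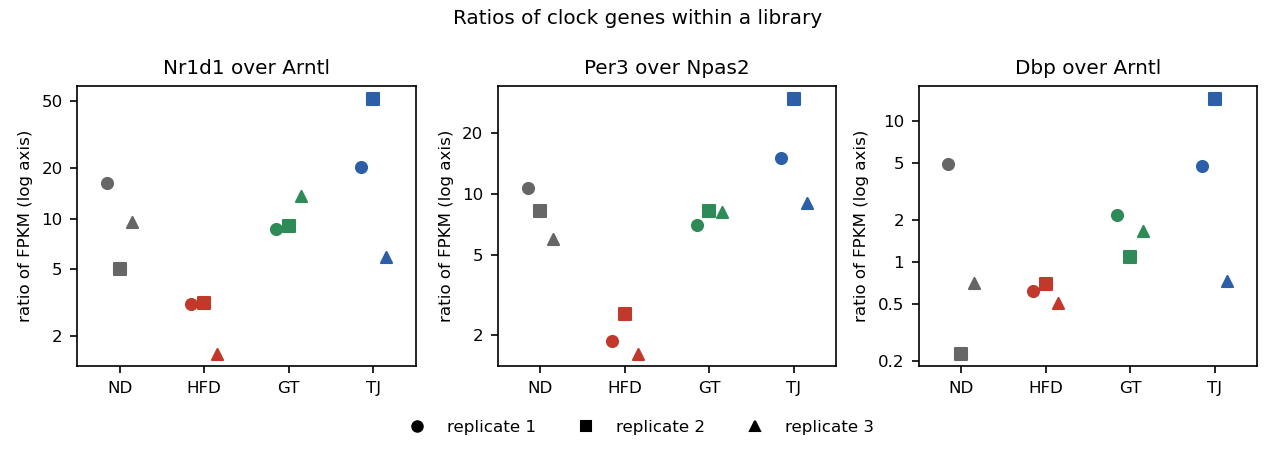
Ratios of FPKM within each library on log y axes, for Nr1d1 over Arntl, Per3 over Npas2 and Dbp over Arntl. Each point is a library, marked by replicate. For all 3 ratios the HFD libraries lie below the GT and TJ libraries, and TJ replicate 2 lies highest, at 51.9, 29.5 and 14.4.

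The HFD was compared with ND to ask what the diet alone did. None of the 10 clock genes was called by limma (1.77% of all 14430 tested genes were), and only Per3 had an unadjusted p under 0.05, against 11.6% of all genes. Groups did not overlap for 4 of 10, against 26.4%: Arntl, Npas2 and Dbp were above ND in every HFD library and Per3 below. The log2 fold changes were 1.00 for Arntl (SE 0.63, limma adjusted p = 0.50), 0.72 for Npas2 (SE 0.33, limma adjusted p = 0.486), 0.57 for Dbp (SE 0.37, limma adjusted p = 0.503) and -0.87 for Per3 (SE 0.28, limma adjusted p = 0.287). Per1 stood at -0.99 (SE 0.43, limma adjusted p = 0.464). The median over the 10 was 0.20, beside 0.07 over all tested genes.

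Without ND replicate 1, 1 of the 10 was called, Per3, which fell by 0.99 (SE 0.17, limma adjusted p = 0.0191), while 15.4% of all genes were called. Nr1d1 was then at -1.10 (SE 0.29, limma adjusted p = 0.0641) and Arntl at 0.31 (SE 0.18, limma adjusted p = 0.323). Clock turned from 0.70 to -0.31 and Nr1d2 from 0.46 to -0.55, and both were at their lowest level in that library. Npas2 stood at 0.53 (SE 0.23, limma adjusted p = 0.191), Dbp at 0.72 (SE 0.31, limma adjusted p = 0.194) and Per1 at -0.95 (SE 0.44, limma adjusted p = 0.226). Groups then did not overlap for 7 of 10, with Clock, Per2 and Nr1d1 added on the lower side, against 47.2% of all genes. The median over the 10 went to -0.43, beside -0.02 over all tested genes.

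TJ was set against GT to ask whether the extracts differ. None of the 10 clock genes was called by limma (0.148% of all 12187 tested genes were), and 1, Clock, had an unadjusted p under 0.05, against 24.6%. Clock was lower in all TJ libraries than in all GT libraries (-0.70, SE 0.25, limma adjusted p = 0.161), and Per3 was higher (0.39, SE 0.17, limma adjusted p = 0.203). Those were the 2 of 10 without overlap, against 34.4% of all genes. Arntl (-0.29, SE 0.31), Npas2 (-0.30, SE 0.18), Nr1d1 (0.44, SE 0.34) and Dbp (0.78, SE 0.53) did not pass (limma adjusted p from 0.312 to 0.553), which does not show that the extracts act alike.

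A list of 25 other clock and clock-output genes was read for the same comparisons. For GT against HFD, 1 of the 21 tested was called (3.63% of all genes were), Wee1, a clock-controlled kinase that holds back entry into mitosis, and it was lower. For TJ against HFD, 4 of 23 were called, a share near the 18.5% of all genes, and all were lower: Wee1, Gsk3b, a kinase that phosphorylates clock proteins, and Bhlhe40 and Bhlhe41, the DEC repressors that bind E-boxes. For HFD against ND and TJ against GT limma called 0 of 23 each, and 2 had an unadjusted p under 0.05 in each, against 11.6% and 24.6% of all genes. The list's median log2 fold change was -0.16 for GT and -0.26 for TJ against HFD, beside the -0.12 and -0.14 of all genes.

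Wee1 was 5.46, 5.39 and 6.86 FPKM in HFD, 2.34, 2.09 and 2.25 FPKM in GT, and 1.72, 0.657 and 2.93 FPKM in TJ. HFD was above all GT and TJ libraries, with log2 fold changes of -1.09 for GT (limma adjusted p = 0.0302) and -1.40 for TJ (limma adjusted p = 0.0317). Bhlhe40 was 15.1, 15.1 and 12.7 FPKM in HFD and 9.02, 5.84 and 7.40 FPKM in TJ, a log2 fold change of -0.88 (limma adjusted p = 0.0268). Bhlhe41 was lower by a smaller amount in TJ, at -0.67 (limma adjusted p = 0.0477). Gsk3b was 19.5, 19.8 and 19.99 FPKM in HFD and 8.40, 5.26 and 10.9 FPKM in TJ, at -1.22 (limma adjusted p = 0.0255), with GT between them at 12.6, 15.5 and 15.4 FPKM.

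Tef, a D-box factor of the Dbp family, had the highest value of the list for GT. It was 28.1, 32.5 and 31.0 FPKM in HFD, 47.4, 42.4 and 47.6 FPKM in GT and 40.9, 41.9 and 39.6 FPKM in TJ, and HFD was below both without overlap. Its log2 fold change was 0.57 for GT (limma adjusted p = 0.0379), a fold just under the 1.5 needed for a call, and 0.41 for TJ (limma adjusted p = 0.0517). For TJ against GT the lowest of the list was Gsk3b, at -0.80 (limma adjusted p = 0.132). For HFD against ND the highest was Nampt, an enzyme of NAD synthesis under clock control, at 1.45 (limma adjusted p = 0.505), and the lowest Usp2, a clock-controlled deubiquitinase, at -2.90 (limma adjusted p = 0.494), with 343.9 FPKM in ND replicate 1 against 4.19 and 57.9 in the other ND libraries. Without ND replicate 1, Nampt came to 0.32 (limma adjusted p = 0.385) and Usp2 to -1.47 (limma adjusted p = 0.466). In that fit limma called Tef lower (-0.67) and Id2, an inhibitor of helix-loop-helix factors that was picked by its values, higher (0.76).

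**Figure D4:**
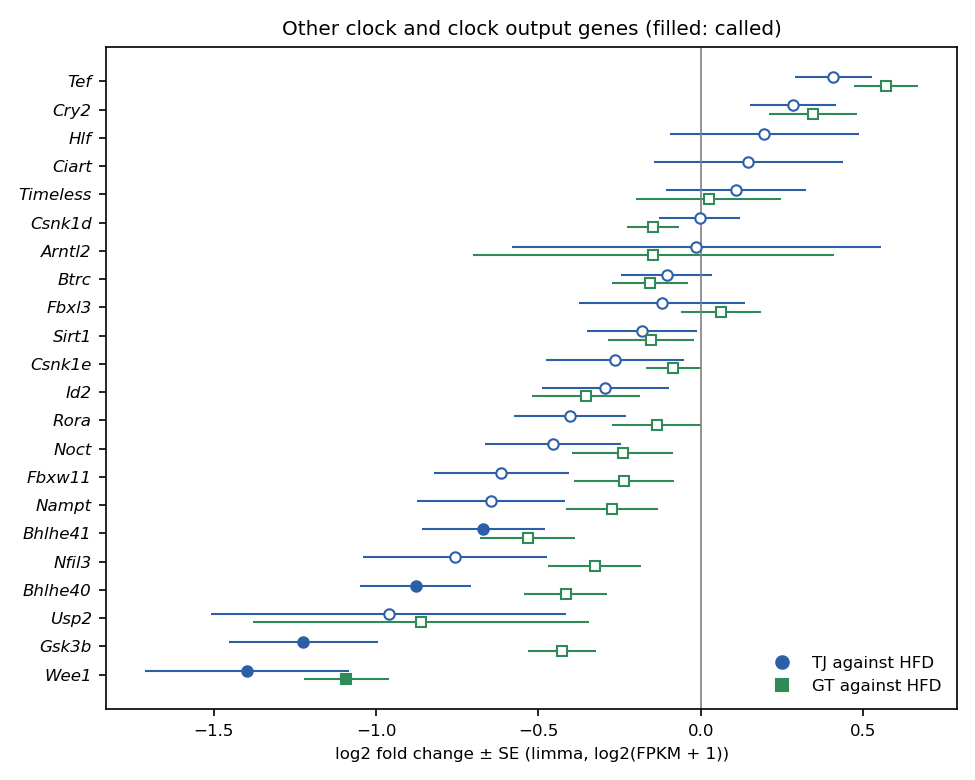
Log2 fold change against HFD of tested genes among the other clock and clock-output genes, with its SE, TJ as circles and GT as squares, with filled points for called genes. Wee1, Gsk3b, Bhlhe40 and Bhlhe41 are filled on the lower side, Wee1 for both extracts, and none is filled on the higher side.

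Per1 answers to glucocorticoids, and the mice had fasted, so a list of 22 glucocorticoid and fasting genes that includes Per1 was read beside it. For GT against HFD, 1 of 20 was called (3.63% of all genes), Pck1, the adipocyte enzyme of glycerol synthesis, which was higher. For TJ against HFD, Pck1 was called higher and Foxo3, a factor active when insulin signals are low, was called lower (-0.89, limma adjusted p = 0.0397), 2 of 20 where 18.5% of all genes were called. For HFD against ND and TJ against GT limma called 0 of 21 each, and 1 and 7 had an unadjusted p under 0.05, against 11.6% and 24.6% of all genes.

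Pck1 was 266.3, 245.9 and 226.6 FPKM in HFD, 444.4, 819.0 and 980.2 FPKM in GT and 940.3, 1626 and 818.4 FPKM in TJ. HFD was below all of them, at log2 fold changes of 1.53 for GT (limma adjusted p = 0.0411) and 2.13 for TJ (limma adjusted p = 0.0196). The lowest of the list for GT was Sgk1, a kinase induced by glucocorticoids (-0.95, limma adjusted p = 0.0714), and for TJ Cdkn1a, the p21 inhibitor of the cell cycle (-0.97, limma adjusted p = 0.0557). For TJ against GT the list ran from Mt1, a metallothionein (0.69), to Fkbp5, a chaperone of the glucocorticoid receptor (-0.68), whose limma adjusted p-values were 0.132 and 0.137. For HFD against ND it ran from Sgk1 (1.77) to Pck1 (-1.48). Without ND replicate 1, Sgk1 came to 0.70 (limma adjusted p = 0.194) and Cdkn1a was the highest, at 1.39 (limma adjusted p = 0.0115), and limma called Mt1, Mt2 and Cdkn1a higher and Pck1 lower (-3.05, limma adjusted p = 0.000735), of which Mt2 was picked by its values.

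Markers of cell types moved with these groups. The 12 macrophage markers summed to 4479 to 6557 FPKM in HFD, 1622 to 3828 in GT, 1029 to 2939 in TJ and 173.0 to 710.3 in ND. None was at 0 in any library. For TJ against HFD limma called 9 of the 12 lower, against 11.1% of all tested genes. For GT against HFD it called 0 of 12, against 3.63% of all genes. All 12 had an unadjusted p under 0.05 there, against 29.3%. The 12 adipocyte markers summed to 18041 to 20651 FPKM in HFD, 25959 to 31127 in GT, 32622 to 72559 in TJ and 7586 to 38435 in ND. Fabp4 made up much of these sums, at 48299 FPKM in TJ replicate 2. Limma called 5 of 12 higher for GT against HFD (1.83% of all tested genes) and 10 of 12 for TJ (7.41%). Lep went the other way for TJ, at 719.0, 292.2 and 824.9 FPKM against 898.8 to 1196 in HFD. TJ replicate 2, which had the highest adipocyte sum and the lowest macrophage sum of the TJ libraries, also had the highest Nr1d1, Per3 and Dbp and the lowest Arntl, Clock and Npas2 of all HFD, GT and TJ libraries. Among the same 9 libraries HFD replicate 3, with the highest macrophage and lowest adipocyte sum, had the highest Arntl and Npas2 and the lowest Nr1d1 and Per3. Not all libraries kept to this order for macrophage markers. TJ replicate 3 had a lower macrophage sum than TJ replicate 1 (2481 against 2939 FPKM) but higher Arntl and lower Nr1d1. Its adipocyte sum was lower too, at 32622 against 40307 FPKM. The 6 stromal markers summed to 1733 to 1863 FPKM in HFD, 999.9 to 1349 in GT and 691.7 to 1014 in TJ, and 6 endothelial ones to 206.3 to 236.7, 242.4 to 286.0 and 263.9 to 407.8 FPKM. The part of the cell types in the changes of the clock genes was not tested.

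**Figure D5:**
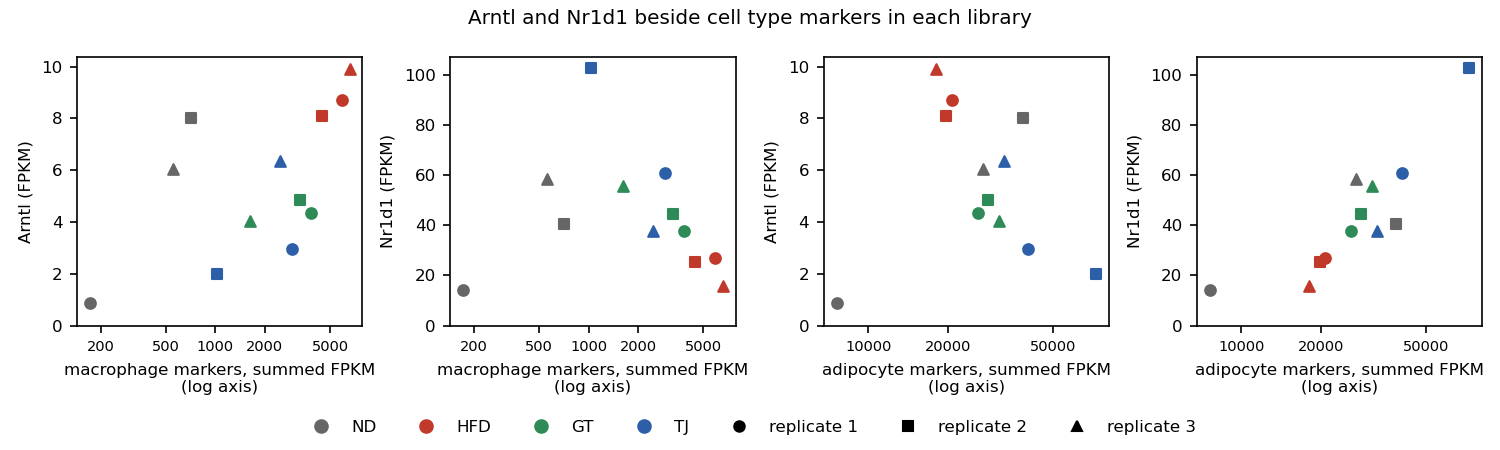
Arntl and Nr1d1 (FPKM, linear y axes) beside the summed FPKM of 12 macrophage or 12 adipocyte markers (log x axes) in each of the 12 libraries, coloured by group and marked by replicate. The HFD libraries lie at 4479 to 6557 FPKM of macrophage markers with the highest Arntl, and TJ replicate 2 lies at 72559 FPKM of adipocyte markers with the highest Nr1d1.

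Genes most like Arntl and Dbp were sought by the Pearson correlation of log2(FPKM + 1), centred on each group's mean, over the 12 libraries, for 13934 genes whose mean reached 1 FPKM. For Arntl the 5 highest were Ptger4 (0.99), Mbnl1, Atm, Tarsl2 and Fli1, and the 5 lowest Paf1 (-0.98), Borcs5, Hemk1, Asl and 2310009B15Rik. For Dbp the 5 highest were Hmces (0.94), Inpp5e, Rpusd1, Alg9 and Hddc3, and the 5 lowest Hist1h1e (-0.91), Man1a, Pcdh17, Sept2 and Tnfrsf10b. The points share library, depth and tissue makeup, and ND replicate 1 lies far from its group. Over the 9 HFD, GT and TJ libraries, a set chosen after seeing the data, the lists shared 0 of 5 genes with these at either end for either gene. Arntl was then least like Pdrg1 (-0.99), and Dbp was most like Polr2h (0.99), Ifrd1, Mkks, Serf2 and Romo1 and least like Col4a2 (-0.99), Tarsl2, Hsd17b4, Tmem33 and Col4a1.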

How the data were processed

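The deposited table held FPKM values of 12 mRNA libraries from eWAT. The submitters' processing notes name CASAVA 1.8.2, STAR 2.4.0 and Cufflinks 2.1.1. The authors mapped paired reads to an Ensembl release 72 genome and computed FPKM with Cufflinks, with noncoding regions masked and multiread and bias correction. Their methods name the human genome, whereas all 23474 identifiers are mouse ones. The authors' own read counts were not used here. No libraries held identical values.

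Symbols and positions came from GENCODE M21 (GRCm38), which named 22671 identifiers. Depth was approximated from the smallest FPKM steps of 2315 genes with 1 transcript of at least 1500 nt. Groups were compared two-sided with limma 3.58.1 in R 4.3.3 (lmFit, eBayes with trend) on log2(FPKM + 1), over the 6 libraries of both groups, without covariates, for genes whose mean reached 1 FPKM. Genes were called at a Benjamini-Hochberg adjusted p under 0.05 where the fold change reached 1.5. The fit was tested on simulated data. Tables and figures used python 3.11.15, pandas 2.3.3, numpy 2.4.6 and matplotlib 3.10.9.

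All 10 clock genes are named, and of the other lists those genes called in any comparison and the highest and lowest log2 fold change of each, with the 5 most and least alike genes of Arntl and Dbp. Some items that this rule covers are not reported here. The members and lists were chosen with earlier results of these data known. Alternatives were a pseudocount of 0.1, no filter, median-of-ratios scaling, all 12 libraries in 1 fit, the replicate number as a block, each library left out in turn and, chosen after seeing the data, the 9 libraries of HFD, GT and TJ in 1 fit. The deviations of same-numbered HFD and ND libraries from their group means correlated at 0.55, 0.34 and 0.12. Each was over 0.1, and the block alternative took these libraries as pairs. Libraries with different numbers correlated from -0.67 to 0.63, so these values cannot show pairing. The labels name nothing that same-numbered libraries share, and the main fit used no pairs.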

Additional observations from a re-analysis of the deposited data

How the results depend on the processing

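The replicate number as a block treats same-numbered libraries as pairs. With it, 0 clock genes were called as before for HFD against ND. Calls over all genes went from 255 to 0 (2239 with an unadjusted p under 0.05 by limma). For the other comparisons the same-numbered libraries correlated between -0.21 and 0.37 and likewise share only a number. There, with the block, 0 clock genes (3 without it) and 5 genes in all (464 without it) were called for GT against HFD, and 4 clock genes as before and 1198 genes in all (2366 without it) for TJ against HFD. No other clock count changed. With no filter the counts were 0 clock genes and 5 in all for GT against HFD, 1 and 382 for TJ against HFD, and 6 in all for TJ against GT (18 as reported). A pseudocount of 0.1 gave 126 genes for HFD against ND and 11 for TJ against GT. With all 12 libraries in 1 fit HFD against ND gave 1 clock gene (Per3) and 1131 genes, GT and TJ against HFD each 0 clock genes and 1 gene, and TJ against GT 4 genes. The fit of 9 libraries gave 0 and 206 for GT against HFD and 338 genes for TJ against GT. Leaving out each library in turn gave 0 to 1 clock genes and 0 to 2098 genes for HFD against ND (the highest without ND replicate 1), 0 to 3 and 4 to 1107 for GT against HFD (the highest without GT replicate 1), 0 to 6 and 0 to 3412 for TJ against HFD, and 0 clock genes and 4 to 81 genes for TJ against GT. Fits with a library left out held fewer libraries, and the cause of the changed counts was not tested.

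No called clock gene changed direction under any of these alternatives. Uncalled ones did. HFD against ND gave Per2 at 0.12 with a pseudocount of 0.1. Leaving out each library in turn moved, for HFD against ND, Clock from -0.31 (without ND replicate 1) to 1.21, Nr1d2 from -0.55 (without ND replicate 1) to 1.05, Per2 from -0.76 to 0.46 and Cry1 from -0.192 to 0.0458. Clock for GT against HFD turned to 0.12 with median-of-ratios scaling and ran from -0.159 to 0.11 with a library left out. The same ran, for TJ against GT, from -0.0738 to 0.144 for Per1, from -0.219 to 0.0714 for Per2 and from -0.0530 to 0.164 for Cry1. The 7 called clock gene values, each under 12 alternatives, lost the call in 52 of 84 cases, 28 of 36 for GT and 24 of 48 for TJ against HFD. Uncalled values gained a call in 7 cases and turned in 17. FPKM holds no counts, and 3 libraries a group at 1 unknown time of day cannot show a phase.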
